A study of Mus musculus with 30 samples.

Results

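The members are the spots of a mouse cDNA array whose clone name starts with "eukaryotic translation" or contains "tRNA synthetase", that is, the translation initiation and elongation factors and the enzymes that charge tRNAs. The rule found 87 of the 22830 named spots, with 51 names and 45 gene symbols. For 9 spots the name gives no symbol. The factors and what is named after them have 62 spots and the synthetases 25. Of the 87 spots, 72 were bright enough to be measured on every array, 53 among the factors and 19 among the synthetases. The rule is one of names, and it also caught proteins with other roles. These are 4 spots of eIF2C 1 to eIF2C 3, today called Argonautes, which bind small RNAs, and spots of the kinases of eIF2 and of proteins that bind eIF4E. No release factor was caught.

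The samples are AtT-20 cells, a line from a mouse pituitary tumour that, like corticotropes, makes POMC, the precursor of ACTH, and answers to corticotropin-releasing hormone (CRH). Serum-deprived cells were treated with 100 nM CRH for 1, 3, 6, 12 or 24 h, and untreated cells, equally deprived of serum, were harvested alongside at each time. RNA of CRH-treated and untreated cells was labelled with Cy3 and Cy5 and hybridised together. Each time point has 6 arrays, 3 in each dye orientation, and all 6 hold the same pair of RNA extracts. Below, "in Cy3" and "in Cy5" name the dye of the CRH-treated sample. The 6 arrays are technical replicates: an SD, or a p-value of a fit over arrays, measures the spread between hybridisations. A difference between time points cannot be told apart from one between extracts. Only the tests of CRH over the course and of a trend with time take the time points as units. Of the corticotrope markers, 10 of 14 spots were measured, Pomc among them with a mean log2 intensity of 13.2, while the 1 marker spot of another pituitary lineage, Gh, had 9.07. The measured corticotrope spots ranged between 9.56 (Tbx19) and 14.3 (a spot of Cpe), and Chga and Pcsk2 were too dim to be measured. The T cell marker Cd3g had 11.1, so that the brightness of a spot alone does not tell the lineage. Bulk RNA cannot separate fewer cells from less RNA per cell. Unless stated, values are log2 ratios (CRH-treated over untreated), so that 0 means no difference.

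Initiation factors bring the first tRNA, the mRNA cap and the ribosomal subunits together. Elongation factors then deliver charged tRNAs and move the ribosome along, and the aminoacyl-tRNA synthetases join each amino acid to its tRNA. Phosphorylation of eIF2 by its stress-sensing kinases lowers initiation as a whole, while growth signals through mTOR free the cap-binding protein eIF4E. Many mRNAs of elongation factors and ribosomal proteins begin with a run of pyrimidines, the TOP motif, which ties their translation to these growth signals. The receptor of CRH acts through cAMP, and genes that answer to cAMP often carry a cAMP response element (CRE) in the promoter.

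Promoter windows of 300 bases, 250 before and 50 after the annotated start, were available for 33 of the 45 member symbols (RefSeq, GRCm38.p6). Shown are those of the members with a motif among the genes whose ratio differed between time points, and that of glutamyl-prolyl-tRNA synthetase, the member with the highest ratio. Capitals mark a full CRE (TGACGTCA, either strand) or a run of at least 10 C or T letters that reaches within 20 bases of the start.
Eef2 (chr10:81176381-81176680, plus strand): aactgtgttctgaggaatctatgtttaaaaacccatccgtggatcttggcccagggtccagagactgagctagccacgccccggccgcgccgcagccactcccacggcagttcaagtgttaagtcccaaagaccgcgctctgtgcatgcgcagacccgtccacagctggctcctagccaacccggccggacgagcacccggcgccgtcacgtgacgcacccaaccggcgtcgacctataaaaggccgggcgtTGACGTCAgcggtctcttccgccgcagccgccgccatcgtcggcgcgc
Eef1a1 (chr9:78481675-78481974, minus strand): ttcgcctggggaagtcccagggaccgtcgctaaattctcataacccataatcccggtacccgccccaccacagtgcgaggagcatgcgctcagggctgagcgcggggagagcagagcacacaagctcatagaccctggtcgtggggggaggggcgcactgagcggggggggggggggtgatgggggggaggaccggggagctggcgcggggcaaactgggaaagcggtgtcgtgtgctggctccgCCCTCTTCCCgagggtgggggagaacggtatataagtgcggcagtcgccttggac
Eif3f (chr7:108934165-108934464, plus strand): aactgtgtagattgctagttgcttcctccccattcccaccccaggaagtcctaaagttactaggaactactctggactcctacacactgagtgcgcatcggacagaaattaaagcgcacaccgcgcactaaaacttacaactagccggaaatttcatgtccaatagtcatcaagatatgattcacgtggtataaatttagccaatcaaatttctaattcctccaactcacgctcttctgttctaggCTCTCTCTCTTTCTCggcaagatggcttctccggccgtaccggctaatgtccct
Eif3l (chr15:79074973-79075272, plus strand): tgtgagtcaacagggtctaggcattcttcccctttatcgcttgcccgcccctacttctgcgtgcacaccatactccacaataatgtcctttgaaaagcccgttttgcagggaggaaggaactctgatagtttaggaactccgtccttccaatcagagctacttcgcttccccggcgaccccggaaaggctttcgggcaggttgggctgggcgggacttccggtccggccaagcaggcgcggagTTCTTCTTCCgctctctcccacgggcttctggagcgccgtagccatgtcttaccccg
Eprs (chr1:185362794-185363093, plus strand): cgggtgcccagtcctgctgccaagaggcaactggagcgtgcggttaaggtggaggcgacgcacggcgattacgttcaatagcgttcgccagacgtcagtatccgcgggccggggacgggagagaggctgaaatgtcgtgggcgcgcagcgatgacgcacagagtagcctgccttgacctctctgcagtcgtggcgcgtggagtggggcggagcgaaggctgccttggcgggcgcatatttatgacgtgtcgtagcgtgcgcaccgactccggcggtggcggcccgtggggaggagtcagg
The full CRE of the elongation factor gene Eef2 begins 2 bases after the annotated start, and no other of the 33 member windows held one. It is present in 507 of 27025 mouse promoters of this length (1.88%). A pyrimidine run was present in 7 of the 33 windows and in 10.45% of all promoters. The members with one were Eef1a1, Eif3f and Eif3l above, with 10, 15 and 10 letters, and Eef1a2, Kars, Eif2s3x and Eif2s3y, with 12, 11, 16 and 12 letters. The amino acid response letters TGATGNAA, on either strand, were in 3 windows (Aars, Yars and Eif2s3x) and in 4.06% of all promoters. No motif was found in the window of Eprs. These are matches of letters and not sites, and whether a run begins the mRNA, as a TOP motif does, was not tested. The run of Eef1a1 begins at -5 from the annotated start and lies before the letters tatataag of its window. In Eef2 the longest run near the start had 8 letters and fell under the limit of 10.

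By their median, the members as a group lay lower after 1 h of CRH, in Cy3 only, and higher after 3 h, in both dye orientations. Their median ratio was -0.09 at 1 h and 0.12 at 3 h, and after 6, 12 and 24 h it was 0.02, 0.01 and 0.02, while the median of all 14375 measured spots stayed between -0.02 and 0.00. At 1 h 23 of 72 member spots lay above 0 (31.9%, against 50.6% of all spots), and at 3 h 53 did (73.6%, against 45.3%). A higher mean at 3 h than at 1 h was found for 51 of 72 members (70.8%) and for 47.2% of all spots. Elongation factors and synthetases had the widest swing of the groups, with 1 h medians of -0.16 and -0.09 and 3 h medians of 0.18 and 0.21, while the initiation factors had -0.07 and 0.06. The array median of all members averaged -0.15 in Cy3 and 0.01 in Cy5 at 1 h, and 0.10 and 0.13 at 3 h. These medians and shares are descriptions of the groups and carry no test.

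**Figure D1:**
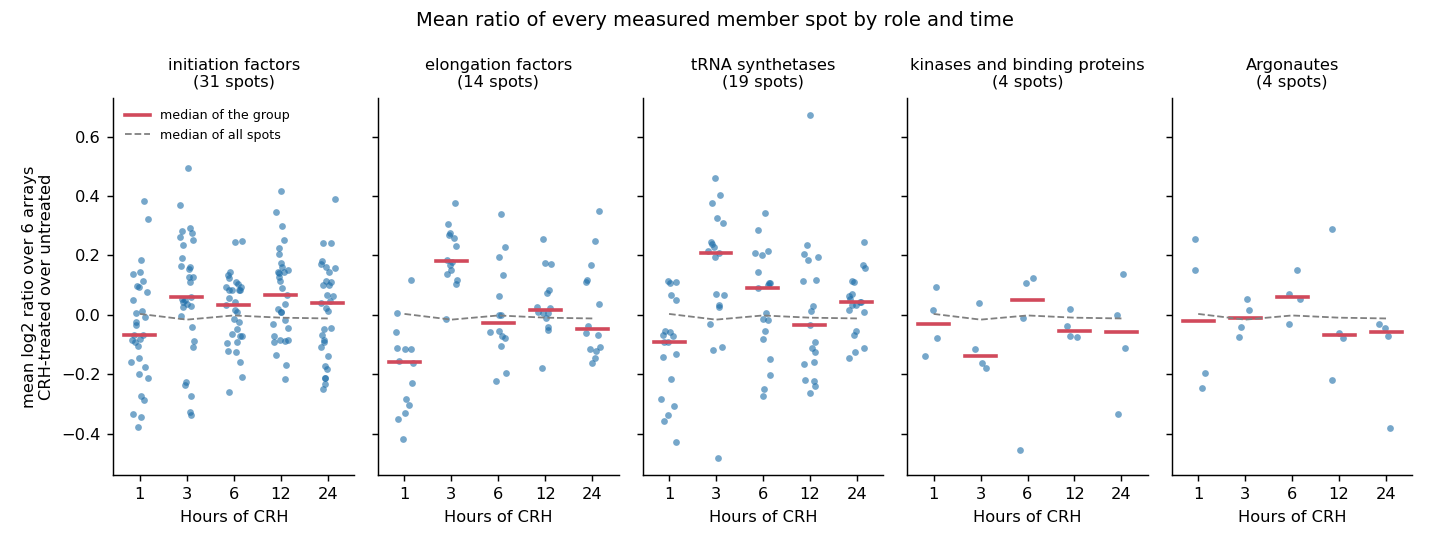
Mean log2 ratio over 6 arrays (y axis, CRH-treated over untreated) of every measured member spot (points) by hours of CRH (x axis, categories), in 5 groups by role. Red bars are the median of the group and the dashed line is the median of all 14375 spots; the elongation factors lie mostly below 0 at 1 h (median -0.16) and above it at 3 h (0.18).

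Whether a ratio changed over the time course was asked spot by spot with a linear model over the 30 arrays with terms for time and dye. Spots whose dye difference itself changed with time (interaction p under 0.01) were set aside first. This took 22 of the 72 members, and 2131 of all 14375 spots (14.8%). Of the 50 members left, 16 had a time effect with p under 0.01, beside 1041 of all 12244 spots tested (8.50%). The members were brighter than most spots, with a median log2 intensity of 11.7 against 10.7 for all, and among the brightest 25% of all spots 500 of 2334 (21.4%) passed. With Benjamini-Hochberg adjustment over all 14375 spots, 12 of the 16 had an adjusted p under 0.05, a share of 24% of the members tested against 4.83% of all spots. The 16 spots carry 13 names. In 14 of them the mean was below 0 at 1 h and above 0 at 3 h, as it was in 460 of the 1041 spots called in all (44.2%). The mean at 1 h was the lowest of the 5 in 14 of the 16, and the mean at 3 h was the highest in 8.

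The calls rest in part on the 1 h arrays. These were quantified on a day of their own, and the 3 h and 6 h arrays together on another day, so that for the difference between 1 h and 3 h the day and the time cannot be told apart. Without the 1 h arrays 8 of 50 members passed (all spots 4.77%), and without the 3 h arrays 10 did (6.10%). With the day as a block, which leaves the contrasts of 3 h with 6 h and of 12 h with 24 h, 5 passed (2.79%). In that fit (n = 30 arrays) the time effect had p = 0.00351 for eEF1A1 (spot 2864), p = 0.00949 for eEF1D, p = 0.00909 for eEF2 (spot 5445) and p = 0.000107 for the alanyl-like clone, whereas for the other 12 spots p ranged between 0.0149 and 0.578. Between 3 h and 6 h alone, on 1 day, 3 of 50 members differed (3.02% of all spots).

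The initiation factors were measured on 31 spots, of which 20 entered the time test and 7 passed (35%, against 8.50% of all spots). Of the 7 spots of eIF1A, eIF2 and eIF2A, the last a factor of its own, 4 were set aside for their dye interaction and 0 of the other 3 passed. eIF2 delivers the initiator tRNA to the small ribosomal subunit, and its beta subunit showed how strongly some ratios hung on the dye. Spot 13312 of eIF2 beta had a mean of -0.34 at 3 h, made up of -1.51 in Cy3 and 0.84 in Cy5. The gamma subunit has an X-linked and a Y-linked copy of near-identical sequence, which a cDNA spot may not separate. Their means were -0.27 and 0.08 at 1 h and 0.19 and 0.03 at 3 h, with SDs of 0.22 to 0.51. Of eIF2B, the exchange factor that reloads eIF2 with GTP, the alpha subunit ranged between -0.09 at 1 h and 0.25 at 12 h (time effect over n = 30 arrays, p = 0.066), and the spot with no subunit given between -0.07 and 0.25.

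eIF3, the large scaffold that holds mRNA and small subunit together, had the most spots and the most calls among the initiation factors. Of 9 spots tested 4 were called (44.4%, against 8.50% of all spots), 2 of them of the gene Eif3l. The eIF4 group had 2 of 5 (40%). eIF3 beta (Eif3i) had a lowest, median and highest array of -0.45, -0.17 and -0.02 at 1 h and of 0.07, 0.28 and 0.36 at 3 h, so that the arrays of the 2 times did not overlap. Its means were -0.21 ± 0.17 and 0.25 ± 0.12 (SD, n = 6 arrays each, as for every mean and SD below), and its time effect had an adjusted p of 0.0251. eIF3 epsilon (Eif3f, spot 23044) lay below 0 on all 6 arrays at 1 h, between -0.70 and -0.18 with a median of -0.31. At 3 h its median was 0.09, and its means over the course were -0.38, 0.06, 0.25, -0.17 and 0.24 (n = 30 arrays, p = 0.0047, adjusted p = 0.0648). Its values at 12 h were wide and split by the dye, with 0.26 in Cy3 and -0.60 in Cy5.

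The subunit 6 interacting protein (Eif3l) has 3 measured spots, and 2 were called. Spot 16424 had -0.46, -0.14 and 0.06 as lowest, median and highest array at 1 h, and 0.08, 0.37 and 0.64 at 24 h, its highest mean at 0.39 ± 0.19 (adjusted p = 0.0412). Spot 10196 peaked earlier, with 0.29 ± 0.33 at 3 h and -0.08 ± 0.28 at 1 h (adjusted p = 0.0466), and the arrays of both times overlapped. The third spot of this gene, 10329, was also lower at 1 h (-0.14) than at 3 h (0.28), without passing (n = 30 arrays, p = 0.087). Among spots set aside for their dye interaction, eIF3 zeta (Eif3d, spot 20224) had one of the tightest values of all members at 3 h, with lowest, median and highest arrays of 0.39, 0.47 and 0.67 and a mean of 0.49 ± 0.10, a fold of 1.41. At 1 h its mean was -0.35 ± 0.30. Its other spot had 0.15 at 3 h and -0.18 at 1 h. Of all 14 eIF3 spots 9 had a higher mean at 3 h than at 1 h. The other 5 include eIF3 gamma (Eif3h), with -0.01 at 1 h and -0.09 at 3 h, eIF3 delta (Eif3g), with 0.18 and -0.23 and a dye interaction, and spot 6469 of eIF3 subunit 6 (Eif3e), with 0.14 and -0.27.

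**Figure D2:**
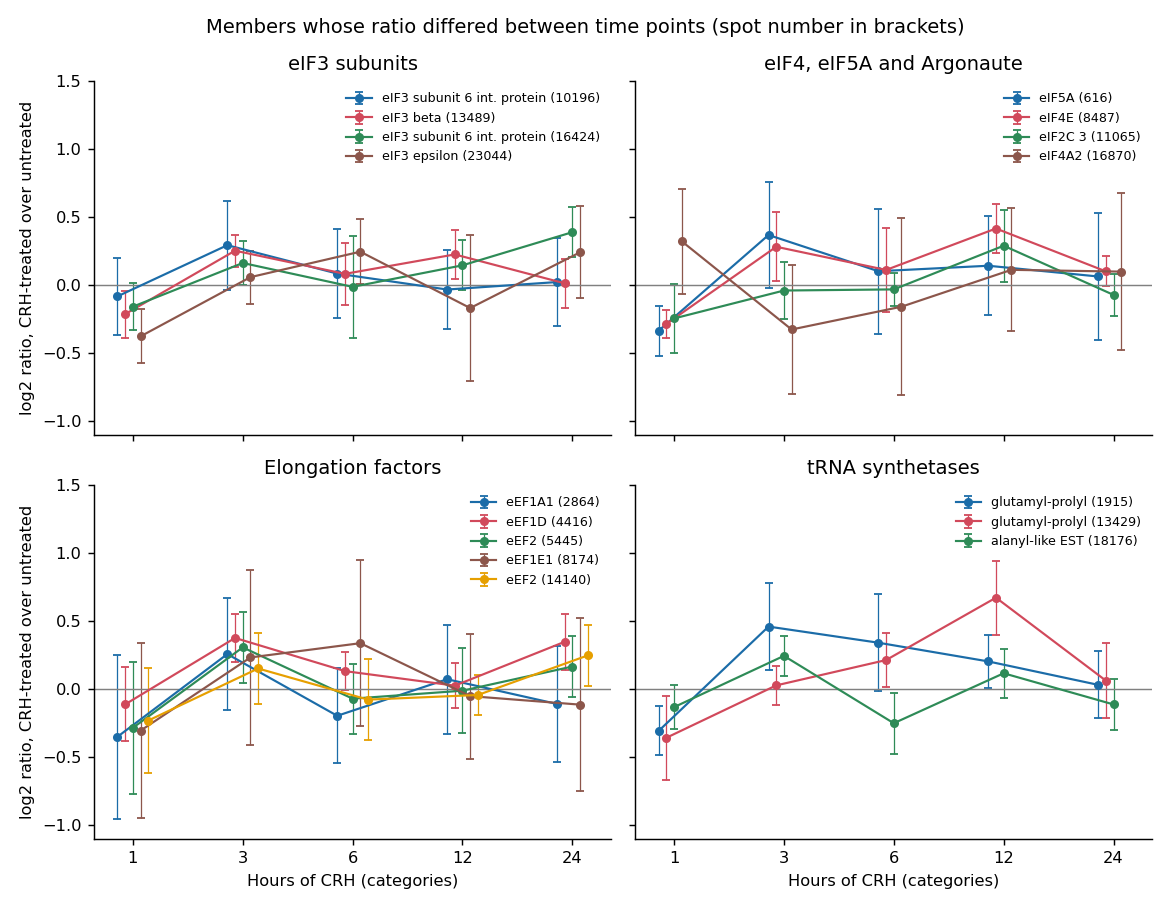
Mean log2 ratio (y axis, CRH-treated over untreated) with SD over 6 arrays of the 16 member spots with a time effect, by hours of CRH (x axis, categories), in 4 panels by role. All but eIF4A2 lie below 0 at 1 h, and 14 of 16 lie above 0 at 3 h.

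The eIF4 group reads the cap. eIF4E, which binds the cap itself, had a called spot (8487) that lay below 0 on all 6 arrays at 1 h and above 0 on all 6 at 3 h and at 12 h. Its lowest, median and highest arrays were -0.42, -0.29 and -0.16 at 1 h. At 3 h these were 0.00, 0.21 and 0.64, and at 12 h 0.19, 0.43 and 0.60. The mean of 0.42 ± 0.18 at 12 h is a fold of 1.33, and the adjusted p of the time effect was 0.00267. The second eIF4E spot, 14601, had 0.01 at 1 h, 0.26 at 3 h, on all 6 arrays above 0, and 0.14 at 12 h, and was set aside for its dye interaction. eIF4A2, an RNA helicase, ran the other way: spot 16870 had 0.32 ± 0.39 at 1 h and -0.33 ± 0.48 at 3 h (adjusted p = 0.0517). This spot was strongly split by dye at both times, with -0.03 in Cy3 and 0.67 in Cy5 at 1 h and -0.67 and 0.02 at 3 h. The other 3 eIF4A2 spots were too dim to be measured, and its close relative eIF4A1 had 0.01 at 1 h and 0.13 at 3 h. eIF4G2, a scaffold related to eIF4G that lacks the part binding eIF4E, gave no call on 3 spots, 1 of them set aside, with means between -0.25 and 0.20.

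eIF5A is named an initiation factor but is known to help the ribosome past difficult stretches during elongation. Its spot 616 had the second lowest p among the members. The 6 arrays at 1 h all lay below 0, with -0.53, -0.34 and -0.12 as lowest, median and highest. At 3 h they were -0.12, 0.48 and 0.86, with a mean of 0.37 ± 0.39 against -0.34 ± 0.18 at 1 h (adjusted p = 0.00111). At every time the arrays fell into 2 sets by dye, higher in Cy3, with means of 0.67 in Cy3 and 0.06 in Cy5 at 3 h and of 0.47 and -0.35 at 24 h. At 1 h both sets lay below 0, between -0.23 and -0.12 in Cy3 and between -0.53 and -0.46 in Cy5.

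The kinases of eIF2 and the binding proteins of eIF4E gave no call on 4 measured spots. Eif2ak1 (HRI, the heme-regulated kinase) had the lowest mean over the 5 time points of all members, -0.22, with -0.46 ± 0.23 at 6 h and all 6 arrays of that time below 0, between -0.76 and -0.05. Its arrays at 12 h spread between -0.59 and 0.81. Eif2ak3 (PERK, of the endoplasmic reticulum) and Eif2ak4 (GCN2, which senses uncharged tRNA) had means between -0.11 and 0.11 and between -0.12 and 0.12. 4E-T (Eif4enif1), which carries eIF4E into the nucleus, ranged between -0.16 and 0.14. Of the Argonautes, eIF2C 3 (Ago3) was called on spot 11065, with -0.25 ± 0.26 at 1 h and 0.29 ± 0.26 at 12 h (adjusted p = 0.0548). Its second spot, 20471, ran the opposite way, with 0.26 ± 0.20 at 1 h on 6 of 6 arrays above 0 and -0.38 ± 0.33 at 24 h, so that the 2 spots do not give 1 pattern for the gene.

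The elongation factors had the largest share of the groups with a higher mean at 3 h than at 1 h, 13 of 14 spots. Called were 5 of the 10 tested (50%, against 8.50% of all spots). Of the 14 spots 6 are of eEF1A1, and repeat spots share the RNA. Both dye orientations lay below 0 at 1 h in 2 of the 14 (14.3%, against 20.2% of all spots). At 3 h both lay above 0 in 7 (50%, against 19.1%). eEF1D, part of the exchange factor that recharges eEF1A with GTP, lay above 0 on all 6 arrays at 3 h (0.12, 0.38 and 0.57 as lowest, median and highest) and again at 24 h (0.02, 0.38 and 0.61). Its means were 0.38 ± 0.18 and 0.35 ± 0.20, against -0.11 ± 0.27 at 1 h (adjusted p = 0.0205). Both dyes gave nearly the same value at 3 h, 0.35 in Cy3 and 0.41 in Cy5.

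eEF2 moves the ribosome by 1 codon, and both of its measured spots were called. Spot 5445 lay above 0 on all 6 arrays at 3 h, between 0.07 and 0.68 with a median of 0.22, and had means of -0.28 ± 0.48 at 1 h and 0.31 ± 0.26 at 3 h (adjusted p = 0.0129). Spot 14140 had -0.23 ± 0.38 and 0.15 ± 0.26 at these times and 0.25 ± 0.22 at 24 h (adjusted p = 0.0803). At 1 h both spots were negative in Cy3 (-0.71 and -0.55) and slightly positive in Cy5 (0.14 and 0.09).

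eEF1A1, which delivers charged tRNAs and is among the most abundant proteins of a cell, has 6 measured spots. Only spot 2864 was called, with -0.35 ± 0.60 at 1 h and 0.26 ± 0.41 at 3 h (adjusted p = 0.0127), and 4 of the other 5 were set aside for their dye interaction. The called spot was split by dye. Its Cy3 arrays lay between -0.93 and -0.88 at 1 h and between -0.33 and 0.18 at 3 h. In Cy5 they lay between 0.03 and 0.28 and between 0.47 and 0.69. The means of the 6 spots lay between -0.42 and 0.01 at 1 h and between -0.01 and 0.28 at 3 h. Its relative eEF1A2, the form of neurons and muscle, had -0.16 and 0.27 on a much dimmer spot without a call, and the clones may cross-hybridise. Of eEF1B2, another part of the exchange factor, both spots ran alike, with -0.16 and -0.11 at 1 h and 0.18 and 0.14 at 3 h, without a call. eEF1E1, known as a scaffold of the complex that gathers several synthetases, was called on spot 8174, with -0.31 ± 0.64 at 1 h and 0.34 ± 0.61 at 6 h (adjusted p = 0.0307). In that spot the Cy3 orientation gave the higher value at every time, 0.23 against -0.84 in Cy5 at 1 h. Its second spot had 0.12 at 1 h and did not pass (n = 30 arrays, p = 0.021).

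The tRNA synthetases gave 3 calls among 12 spots tested, 2 of them on spots of 1 gene. That is 25%, against 8.50% of all spots and 21.4% of the brightest 25% of spots. Glutamyl-prolyl-tRNA synthetase (Eprs), a double enzyme that charges the tRNAs of glutamate and proline, stood out on all 3 of its spots, each below 0 at 1 h (means of -0.36 to -0.28) and above it at 3 h, 6 h and 12 h. Spot 13429 lay above 0 on all 6 arrays at 12 h, with 0.19, 0.68 and 1.00 as lowest, median and highest, while at 1 h its arrays had -0.87, -0.35 and 0.10. The arrays of both times did not overlap. Its mean of 0.67 ± 0.27 at 12 h, a fold of 1.59, was the highest of any member at any time, and the time effect had an adjusted p of 0.000865, the lowest among the members.

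Spot 1915 of the same gene peaked at 3 h instead, with arrays between 0.01 and 0.70 (median 0.64) and a mean of 0.46 ± 0.32, against -0.31 ± 0.18 at 1 h with all 6 arrays below 0 (adjusted p = 0.00298). At 12 h it had 0.20. The third spot, 1686, had 0.40 ± 0.17 at 3 h and 0.24 ± 0.12 at 12 h, above 0 on 6 of 6 arrays both times, and was set aside for its dye interaction (n = 30 arrays, p = 0.0058). The spots thus shared their signs from 1 h to 24 h but not the time of their highest value, 12 h for 1 spot and 3 h for the other 2.

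**Figure D3:**
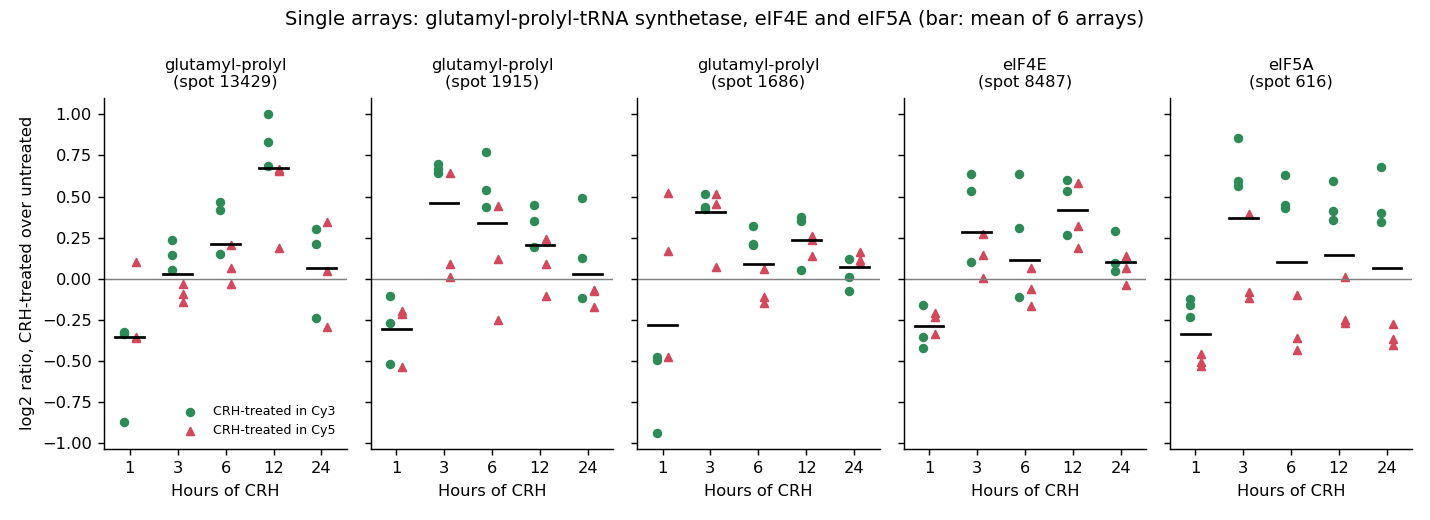
Log2 ratio (y axis, CRH-treated over untreated) on each single array by hours of CRH (x axis, categories) for the 3 spots of glutamyl-prolyl-tRNA synthetase, eIF4E and eIF5A. Green circles are arrays whose CRH-treated sample carried Cy3, red triangles those where it carried Cy5, and bars the mean of 6 arrays. Spot 13429 reaches 0.67 at 12 h, and eIF5A splits by dye at every time.

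None of the other cytosolic synthetases was called, and their spots peaked at different times. Of the 14 cytosolic synthetase spots, 9 lay above 0 in both dye orientations at 3 h (64.3%, against 19.1% of all spots). On all 6 arrays 7 did, a count not made for all spots. They were 2 of glutamyl-prolyl and 1 each of alanyl (0.38 ± 0.15), phenylalanyl beta (0.33 ± 0.15), seryl 1 (0.31 ± 0.14), asparaginyl (0.24 ± 0.13) and histidyl (0.23 ± 0.12). Of these 7, 6 were not among the spots called, 5 of them set aside for dye interaction. Repeat spots did not all follow, as the other alanyl spots had 0.03 and -0.11 at 3 h and the other phenylalanyl beta spot 0.07. Lysyl-tRNA synthetase had -0.12 at 3 h and 0.11 at 6 h. The third call was the clone like alanyl-tRNA synthetase (spot 18176), one of the brightest members, with -0.13 ± 0.16 at 1 h, 0.24 ± 0.15 at 3 h and -0.25 ± 0.22 at 6 h (adjusted p = 0.00986). It alone among the 16 was also called between 3 h and 6 h, and it reached the scanner limit on 4 arrays. The 2 measured mitochondrial synthetase spots were not called: the isoleucyl-like clone lay below 0 on all 6 arrays at 6 h, between -0.54 and -0.03, and tryptophanyl 2 had 0.29 at 6 h and -0.26 at 12 h. A clone like leucyl-tRNA synthetase had the lowest mean of any member, -0.48 ± 0.20 at 3 h on spot 2375 with all 6 arrays below 0, whereas the second spot of that clone had 0.07.

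No member was called for an effect of CRH held over the course. With the 5 time points as units and limma, 0 of 72 members had an adjusted p under 0.05, beside 8 of 14375 spots (0.0557%), and the lowest member, Eif2ak1, had an adjusted p of 0.736. At an unadjusted p under 0.05 there were 2 members (Eif2ak1 and the eIF4E spot 14601), which is 2.78% against 5.44% of all spots. A trend with the log2 of hours was called for 0 members and 0 spots in all (0%), and at an unadjusted p under 0.05 for 4 members (5.56%, against 7.43% of all).

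Nor were most ratios large. A mean of at least 1.5-fold whose 6 arrays all had its sign was reached by 1 member at 1 time, Eprs spot 13429 at 12 h, where 17 of 14375 spots went up this far (0.118%) and 3 down (0.0209%). At 3 h, with 23 spots up (0.160%) and 3 down (0.0209%), there was no member, nor at 1 h (0.104% up, 0.0974% down), 6 h (0.0348% and 0%) or 24 h (0.0974% and 0.0487%). With the lower bar of 0.3 on the log2 scale and 6 of 6 arrays, 8 members were up at 3 h (11.1% of 72, against 2.14% of all spots). They were the eIF3 zeta spot 20224, eEF1D, eEF2 spot 5445, the 2 Eprs spots 1686 and 1915, and alanyl, phenylalanyl beta and seryl 1. At 1 h 3 members were down by this bar, eIF5A, Eprs spot 1915 and eIF3 epsilon (4.17%, against 1.66% of all).

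The 2 dye orientations gave unequal support to the values at 1 h and 3 h. At 3 h the means of both orientations lay above 0 in 33 of 72 members (45.8%, against 19.1% of all spots), and all 6 arrays did in 15. At 1 h both orientations lay below 0 in 17 members (23.6%, against 20.2% of all), and all 6 arrays in 5. The counts by all 6 arrays were made for the members only, so no share of all spots stands beside them. The array median of the elongation factors at 1 h averaged -0.38 in Cy3 and 0.09 in Cy5, while at 3 h it was 0.16 in both. Single spots differed from this, as eEF1E1 spot 8174 and eEF1B2 spot 4142 were low at 1 h in Cy5 (-0.84 and -0.38) and not in Cy3 (0.23 and 0.15). For the synthetases the medians were -0.20 in Cy3 and 0.00 in Cy5 at 1 h and 0.14 and 0.19 at 3 h. The array medians of all members at 3 h lay between 0.07 and 0.15, and those at 1 h between -0.21 and 0.01.

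**Figure D4:**
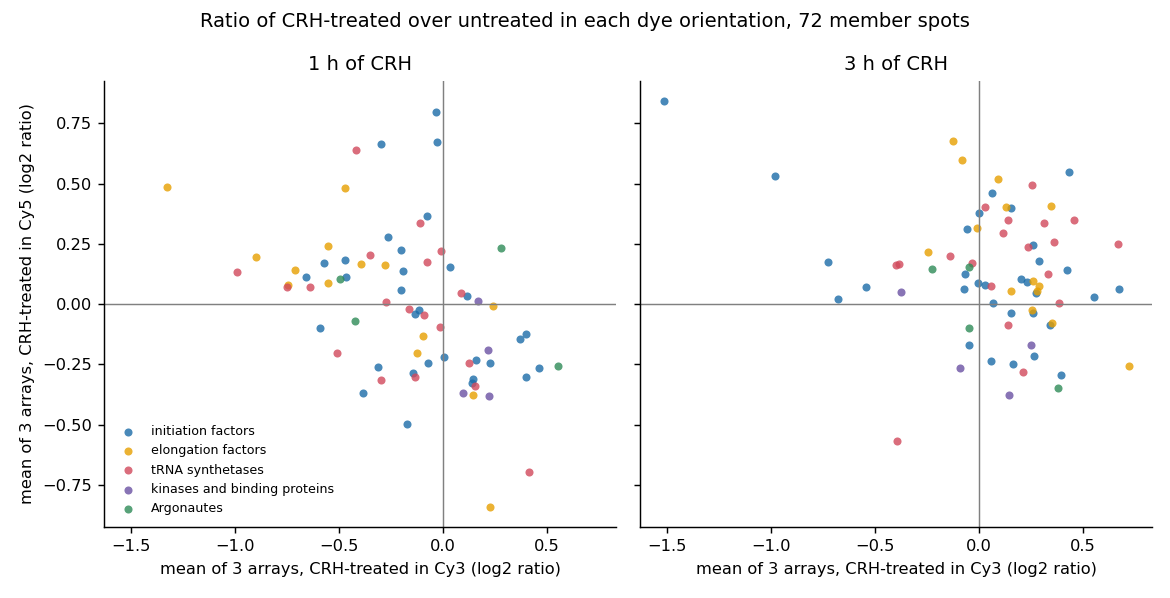
Mean log2 ratio (CRH-treated over untreated) over the 3 arrays of each dye orientation, Cy3 on the x axis and Cy5 on the y axis, for the 72 measured member spots at 1 h (left) and 3 h (right), coloured by role. At 3 h 33 spots lie above 0 on both axes, and at 1 h 17 lie below 0 on both.

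Repeat spots give a second look at a gene, though they share the RNA and the array. Of 19 names with 2 or more measured spots, all spots had the same sign in 11 at 1 h and 13 at 3 h, and in 11, 11 and 14 after 6, 12 and 24 h. The signs of 2 spots can also agree by chance, and the share among repeat spots of other genes was not counted. At 3 h 11 names had all spots above 0 and 2 all below, and at 1 h 9 had all below and 2 all above. Spots of a name disagreed on the sign most visibly for eIF2 beta (-0.34 and 0.13 at 3 h), for the leucyl-like clone and for eIF2C 3. In eIF2A both spots agreed in sign, with 1 h means of -0.11 and -0.09 and 3 h means of 0.16 and 0.05. For the 2 spots of the unnamed eIF3 subunit the 1 h means were 0.14 and 0.09, against 3 h means of -0.04 and -0.24.

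**Figure D5:**
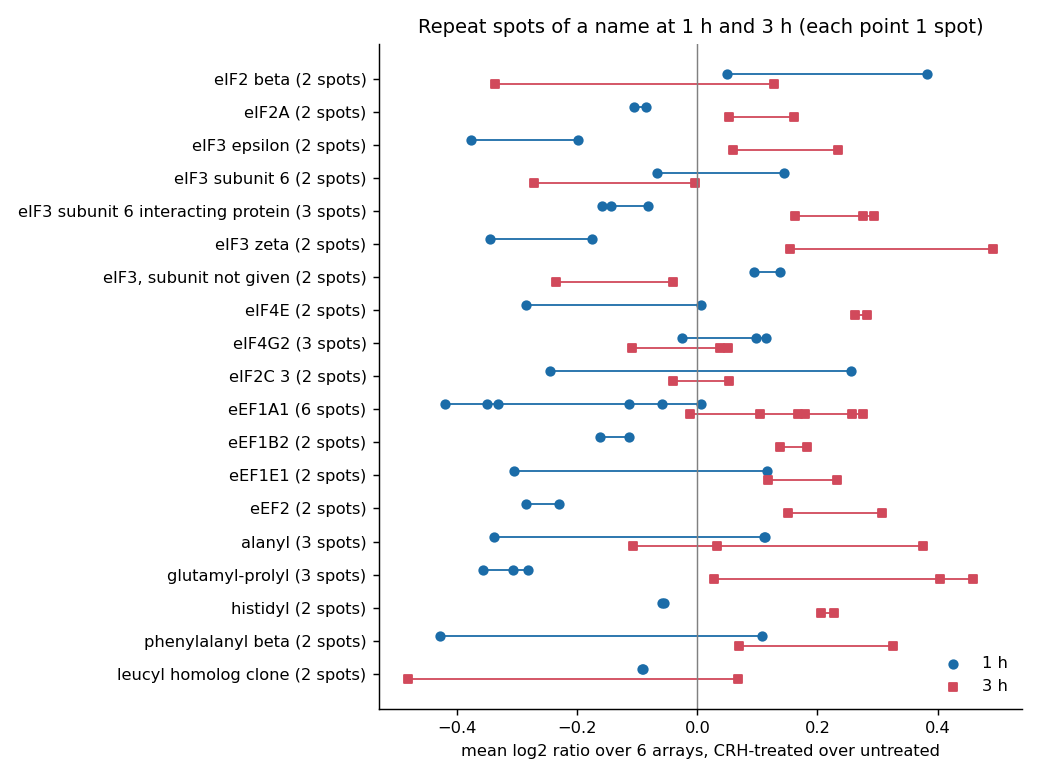
Mean log2 ratio over 6 arrays (x axis, CRH-treated over untreated) of each measured spot of the 19 names with repeat spots (rows), at 1 h (blue circles) and 3 h (red squares), with lines joining the spots of a name. At 1 h 9 names have all spots below 0, and at 3 h 11 names have all spots above 0.

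The spots most like the members were those of cytosolic ribosomal proteins, with which the factors work. Their 64 measured spots had medians of -0.16 at 1 h and 0.22 at 3 h, 52 (81.2%) were higher at 3 h than at 1 h, and 15 of 42 tested (35.7%) had a time effect. The ribosomal proteins stayed above 0 at 24 h, with a median of 0.13, where the members had 0.02. Genes of the ATF4 and amino acid response, which raise amino acid supply when charging fails, had 18 measured spots with medians of -0.14 and 0.05. Of 15 tested, 4 were called (26.7%, against 8.50% of all spots). These were Nupr1, a stress-induced nuclear protein, Slc7a5 and Slc3a2, the 2 chains of a transporter of large amino acids, and Mthfd2, a mitochondrial enzyme of folate metabolism. The called spots all lay below 0 at 1 h and above it at 3 h, Slc3a2 at -0.31 and 0.52. A second, brighter spot of Slc3a2, set aside for its dye interaction, had -0.23 and 0.06. Of the response's other classical targets, Asns (0.02 and 0.04) and Ddit3 (0.21 and 0.16 on 1 spot, 0.13 and -0.19 on the other) did not pass. Both spots of Psat1 had a wide swing, with -0.36 and 0.16 and with -0.39 and 0.26, and were set aside for their dye interaction. Atf4 itself and a further spot of Asns were too dim to be measured. No spot of the regulators of mTOR and the cap was called (0 of 11 tested), and none of the other translation factors (0 of 4). Marker spots of fibroblasts (4 measured) and of T cells (4 measured) gave 0 calls each.

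The 15 member spots below the intensity limit were left without a ratio. Among them 5 genes have no measured spot at all, tryptophanyl-, tyrosyl-, valyl-tRNA synthetase and mitochondrial seryl-tRNA synthetase and 4E-BP2 (Eif4ebp2), the mTOR-controlled inhibitor of eIF4E. The others are further spots of eIF4A2 (3 spots), eEF2, eEF1A1, eEF1A2, eIF5A and eIF2B, and a methionyl-like clone. They lay above the limit on 6 to 29 of the 30 arrays. The tyrosyl spot, at a mean log2 intensity of 12.2, missed it on a single array. At the other end, 6 measured members reached the scanner limit on at least 1 array, most often the eEF1A1 spot 16407 (10 arrays) and eIF4G2 spot 18910 (6 arrays).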

How the data were processed

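Per array, the authors deposited the intensities of each spot and its surroundings in Cy3 and Cy5, as quantified from the scans, and a table of normalised log2 ratios of 12593 spots. In the deposited scanner files the spot and background columns of the second channel hold a few values below 0, and were recorded here as another unit. In 1 deposited file the channels are exchanged, and 2 further channels, of a different slide, were ignored. Here 1170 empty and 192 control spots of 24192 were dropped, spots had to exceed the 10th percentile of both channels on all 30 arrays, and log2 ratios were normalised by loess (span 0.75, degree 2) in each print-tip block, in the direction CRH-treated over untreated. They correlated with the deposited log2 ratios at r between 0.977 and 0.994 across 11341 shared spots. Background was not subtracted.

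Per spot, linear models tested the interaction of time and dye and then time, at p under 0.01 (R 4.3.3). limma 3.58.1 tested the mean over the 5 time point averages and a slope on the log2 of hours, at an adjusted p under 0.05. The fits were tested on simulated data. The size rule asks for 1.5-fold and 6 of 6 arrays. The number of arrays limits the precision. Named are members with a call, the 2 highest and 2 lowest spots of each role, repeat spots, and dim spots without ratios. A few further members, those compared with a called spot, were chosen after their values were seen. The members and lists were chosen with earlier results of these data known. Gene symbols were matched by name to RefSeq. Alternatives were the background correction, the normalisation, the filter on dim spots, the deposited ratios, time as a number, blocks for the replicate number and the day, and leaving out arrays or time points.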

Additional observations from a re-analysis of the deposited data

Results flagged for a closer look

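Looked at were 95 groups of 6 arrays, of the spots with a time effect and of the group medians. In 4 of them 1 array stood apart from the other 5. Chance alone gives about 1 in 20 for 6 draws from 1 normal distribution. The spots were chosen for their time effect and some split by dye, so that this rate need not hold here. The eEF2 spot 14140 had -0.331 on replicate 1 at 12 h, while the other arrays lay between -0.0498 and 0.0676. The Eif3l spot 16424 had 0.511 on replicate 1 at 12 h, against 0.0315 to 0.134. The alanyl-like clone (spot 18176) had -0.491 on replicate 2 at 24 h, against -0.0872 to 0.00856. The median of the synthetases at 3 h was 0.0544 on replicate 3 and between 0.170 and 0.208 on the other 5 arrays, all above 0.

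The ratio of CRH-treated over untreated RNA differed between time points by the test of time itself in 16 member spots. Among the synthetases the adjusted p was 0.000865 and 0.00298 for the glutamyl-prolyl spots 13429 and 1915 and 0.00986 for the alanyl-like clone. Among the initiation factors it was 0.00111 for eIF5A, 0.00267 for eIF4E, 0.0251 for eIF3 beta, 0.0412 and 0.0466 for the Eif3l spots 16424 and 10196, 0.0517 for eIF4A2 and 0.0648 for eIF3 epsilon. Among the elongation factors it was 0.0127 for eEF1A1, 0.0129 and 0.0803 for the eEF2 spots 5445 and 14140, 0.0205 for eEF1D and 0.0307 for eEF1E1. For eIF2C 3 it was 0.0548. The part of the day of quantification in these differences cannot be told apart from time between 1 h and 3 h.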

How the results depend on the processing

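The count of members with a time effect was 16 of 50. Under the alternatives for background, normalisation, dim spots, deposited ratios, all spots kept, adjusted p and limma's moderated F it lay between 12 and 19. It fell to 2 with hours as a number, to 5 with the day as a block, and, by alternatives chosen after seeing the data, to 8 without 1 h, 10 without 3 h and 3 for 3 h against 6 h. The same replicate numbers do not pair the arrays (60 pairs, r between -0.024 and 0.048), and with the replicate block 15 of 53 members passed and 19 of 72 had a dye interaction. That interaction was called in 22 members, in 14 with median centring and 4 with hours as a number. At an unadjusted p under 0.05 there were 2 members for CRH and 4 for the trend, against 0 after adjustment. The size rule took 1 member, 0 at 2-fold and 15 at 0.3. The synthetase median at 12 h, -0.04, was -0.0930 with 1 loess curve per array, 0.0328 without a filter, 0.0222 with the 25% limit, 0.0206 with the deposited ratios and 0.0202 with gene means. At 3 h the synthetase median, 0.21, was 0.0834 without a filter, the initiation factors' median, 0.06, was 0.10 without a filter and 0.11 with median centring, and the elongation factors' median, 0.18, was 0.28 with median centring. Leaving out 1 array gave 14 to 19 time effects, 18 to 22 interactions, 0 CRH effects or trends, 1 by the size rule and 0.0765 to 0.121 for the initiation factors at 3 h. Of the 16 calls 11 held in all 30 such sets, while eEF2 spot 14140 held in 22, eIF2C 3 in 25 and eIF3 epsilon in 27. Medians near 0 also changed sign: the elongation factors' at 6 h (0.00531 without replicate 6 of 6 h), 12 h (-0.0217 without replicate 3 of 12 h) and 24 h (0.0176 with gene means), and the initiation factors' at 24 h (-0.00815 without replicate 4 of 24 h). No group median at 1 h or 3 h did under the alternatives run.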
